A study of Mus musculus with 6 samples.

Results

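Genes of the naive pluripotency network and the Dppa genes were examined in male germ cells with and without an intact Dnmt3a gene. The set comprised 10 genes chosen by symbol, namely Nanog, Sox2, Esrrb, Tfcp2l1, Zfp42, Dppa2, Dppa3, Dppa4, Prdm14 and Tbx3, and all 10 were found among the 54087 gene rows of the count tables. RNA was sequenced from germ cells of male C57BL/6 mice at 10 days post partum, sorted on bright and medium Id4-GFP signal, which enriches for spermatogonial stem cells and was applied to both genotypes. The Dnmt3A genotype was WT/WT in 3 libraries and KO/KO in the other 3. The labels name neither a Cre driver nor the number of animals behind a library, so the spread behind each p-value is that between these samples and may be technical. Gene counts summed to between 42681201 and 61749155 per library.

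The naive network is the set of transcription factors that holds early embryonic cells and mouse embryonic stem cells in an unrestricted state. Its factors bind each other's genes, and several, such as Nanog, Prdm14, Sox2 and Dppa3, are also known from primordial germ cells in the embryo. Spermatogonia descend from those cells and are committed to making sperm, yet they keep some of the network's genes active. DNMT3A places methyl groups on CpG dinucleotides that were not methylated before. Promoters of several pluripotency genes gain such methylation when embryonic cells differentiate.

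Upstream sequence was available for 5 of the 10 genes (RefSeq, GRCm38.p6). It is shown for 3 of them that stand for the patterns described below, a gene that rose (Esrrb), a gene whose genotypes overlapped (Tfcp2l1) and a silent gene (Nanog). Each sequence is the 250 bases before an annotated start, read 5′ to 3′ on the plus strand, which is the strand of all 3 genes, with CpG dinucleotides in capitals.
Esrrb, chr12:86360867-86361116: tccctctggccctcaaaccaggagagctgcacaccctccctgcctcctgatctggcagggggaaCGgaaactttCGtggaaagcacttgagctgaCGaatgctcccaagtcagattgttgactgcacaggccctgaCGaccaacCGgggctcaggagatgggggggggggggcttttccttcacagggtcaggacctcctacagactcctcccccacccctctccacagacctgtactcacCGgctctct
Tfcp2l1, chr1:118627695-118627944: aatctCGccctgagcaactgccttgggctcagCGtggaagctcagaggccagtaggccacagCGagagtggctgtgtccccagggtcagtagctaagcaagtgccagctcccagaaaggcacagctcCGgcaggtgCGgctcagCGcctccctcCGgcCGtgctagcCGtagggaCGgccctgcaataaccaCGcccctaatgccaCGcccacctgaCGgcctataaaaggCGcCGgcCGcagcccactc
Nanog, chr6:122707239-122707488: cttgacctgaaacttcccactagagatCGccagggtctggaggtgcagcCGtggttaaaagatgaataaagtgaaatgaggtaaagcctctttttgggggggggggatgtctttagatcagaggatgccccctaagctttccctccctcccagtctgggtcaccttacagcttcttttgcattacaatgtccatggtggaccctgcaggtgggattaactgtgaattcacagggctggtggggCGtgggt
The Esrrb window held 6 CpG, the Tfcp2l1 window 16 and the Nanog window 3, against a median of 6 over 32851 promoters. Fewer CpG than in the Tfcp2l1 window were counted in 74.6% of promoters, and fewer than in the Nanog window in 29.0%. The Sox2 window was the richest among the 5 members with sequence, with 27 CpG, and that of Zfp42 held 9. The other annotated start of Esrrb, inside the gene, had 3 CpG upstream, and the other annotated start of Nanog had 2. On both strands, TTTGCAT, part of the octamer bound by POU factors such as POU5F1, was found in the Nanog window 75 bases before the start, with ACAATG, a SOX core sequence, at 67 bases before it. TTTGCAT also occurred in the windows of Zfp42 and Sox2, and in 4.12% of all promoters, while ACAATG occurred in 10.7%. AAGGTCA, the half-site of estrogen-related receptors such as ESRRB, was in none of the windows of these 5 members and in 4.08% of all promoters. Methylation was not measured in these samples.

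The labels were first checked against the genes they name. Dnmt3a stood at 215, 193 and 188 CPM (read counts relative to the library total after TMM scaling) with WT/WT, and KO/KO gave 90.2, 104 and 99.5 CPM, so that it was lower in every KO/KO library but not absent. The counts cover the whole gene and do not separate a deleted part from the rest. All 12 germ cell markers examined had enough counts to be tested, and their summed level was 2350 to 2460 CPM in WT/WT and 2150 to 2450 CPM in KO/KO. Within that list Id4, the gene of the sorting reporter, and Gfra1, both known from stem cell spermatogonia, rose by 1.89 and 1.01 on the log2 scale, while Zbtb16, Uchl1 and Sall4 fell by 0.56, 0.88 and 0.36. Markers of other testis cells were also present. Sertoli markers summed to 494 to 742 CPM in WT/WT and 527 to 773 CPM in KO/KO, with Rhox5 the 1 of 12 called, at a log2 fold change of 4.84, and Leydig markers to 6.58 to 16 and 3.57 to 7.24 CPM. Myoid and stromal markers summed to 87.7 to 133 CPM in WT/WT and 49.2 to 69.9 CPM in KO/KO. Endothelial markers summed to 33.7 to 40.3 and 120 to 159 CPM. Macrophage markers summed to 1.32 to 2.26 and 3.83 to 4.82 CPM. Most of this was Cd68, which rose from 1.48 ± 0.278 to 4.07 ± 0.646 CPM (SD, n = 3 each), while Ptprc had 0.302 ± 0.164 and 0.155 ± 0.122 CPM and was not called. The others, Adgre1, Csf1r, Lyz2 and C1qa, were under 0.1 CPM in every library, and no marker of these lists was at 0 in all 6 libraries. In such bulk samples a smaller number of expressing cells and less RNA per cell cannot be told apart.

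Esrrb and Dppa4 rose in KO/KO, Tbx3 and Dppa3 fell, Sox2, Tfcp2l1, Zfp42 and Dppa2 did not pass the test, and Nanog and Prdm14 had too few counts to be tested. The 2 rises and 2 falls were among 8 members tested (quasi-likelihood test of edgeR, with p adjusted by Benjamini and Hochberg over 21314 genes and called under 0.05). Over all genes tested, 8.33% were higher and 6.42% lower by the same rule, 14.8% in either direction. The median log2 fold change of the 8 was 0.50, against 0.00 for all genes tested. The genotypes did not overlap in 6 of the 8 tested members, 4 higher and 2 lower in KO/KO, where 18.2% of all genes tested were higher and 17.5% lower without overlap, 35.8% in either direction. Dppa3 passed the filter on low counts only through the WT/WT libraries. Neither its call, nor these counts, nor the median of the 8 can therefore support a statement about the set.

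**Figure D1:**
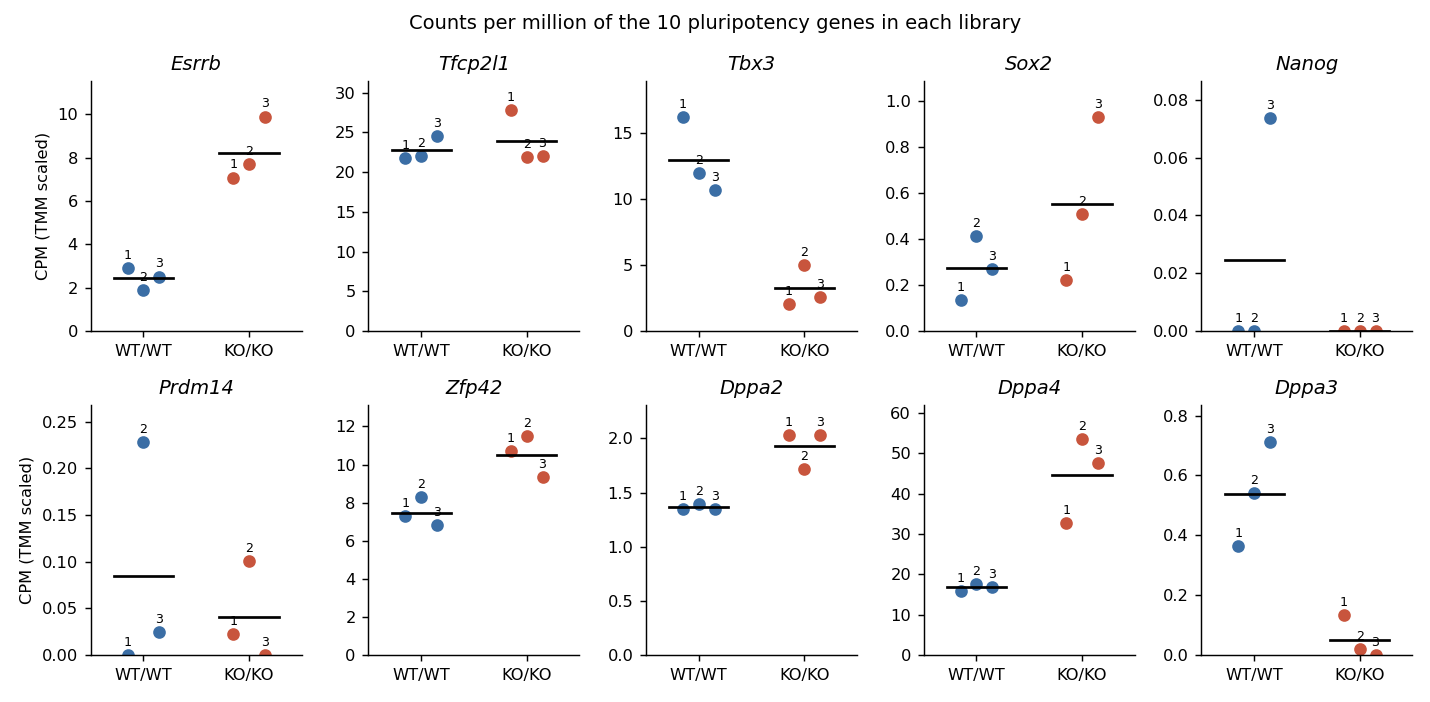
CPM (TMM scaled, linear axes from 0) of each member in the 3 WT/WT (blue) and 3 KO/KO (red) libraries, numbered by replicate, with horizontal bars at the group means. Esrrb and Dppa4 lie higher and Tbx3 and Dppa3 lower in every KO/KO library, while Nanog is above 0 in WT/WT replicate 3 alone.

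Esrrb encodes an orphan nuclear receptor that activates many genes of the naive state (chromosome 12, positions 86361117 to 86521628, GRCm38, plus strand). It stood at 2.90, 1.89 and 2.52 CPM with WT/WT, and KO/KO gave 7.08, 7.70 and 9.89 CPM. The lowest KO/KO library was thus above the highest WT/WT library, and KO/KO replicate 3 was the highest. The log2 fold change was 1.76 (SE 0.22, n = 3 per genotype, edgeR adjusted p = 0.00127), a 3.38-fold difference. It stayed between 1.60 and 1.90 when any 1 library was left out. The summed level of the endothelial markers was also higher in every KO/KO library. Of 7 tested, Cdh5, Kdr, Flt1 and Vwf rose, by 2.98, 1.70, 1.69 and 2.60 on the log2 scale, and Cldn5 was apart without being called. Pecam1 and Tek overlapped between genotypes, with log2 fold changes of 0.16 and -0.18, and Emcn, not tested, had 6, 3 and 0 counts in WT/WT and 1, 0 and 0 in KO/KO. The part of these markers, or of the shift between Id4, Gfra1 and Zbtb16, in the differences of Esrrb and Dppa4 was not tested. The nearest relatives of Esrrb were not called: the WT/WT and KO/KO levels were 4.10 ± 0.515 and 3.66 ± 0.543 CPM for Esrra, and 1.30 ± 0.186 and 0.683 ± 0.326 CPM for Esrrg (SD, n = 3 each).

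Tfcp2l1 (chromosome 1, positions 118627945 to 118685168, plus strand), a transcription factor of the grainyhead-like family that acts downstream of LIF and STAT3 in embryonic stem cells, was not called. It stood at 21.8, 22 and 24.6 CPM with WT/WT, and KO/KO gave 27.8, 21.9 and 22.1 CPM. The ranges overlapped, with KO/KO replicate 1 the highest library. The log2 fold change was 0.07, with a 95% interval from -0.22 to 0.36 (edgeR adjusted p = 0.766), and it was -0.04 without KO/KO replicate 1. Its paralogs Tfcp2 and Ubp1 had log2 fold changes of -0.31 and 0.05 and were not called.

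Tbx3 (chromosome 5, positions 119670669 to 119684724, plus strand), a T-box factor that supports the naive state and is also used in limb, heart and mammary development, had a lower level in the KO/KO libraries. Its values were 16.2, 12.0 and 10.7 CPM with WT/WT, and KO/KO gave 2.08, 5.01 and 2.62 CPM. Every KO/KO library was below every WT/WT library, and KO/KO replicate 1 was the lowest. The log2 fold change was -2.0 (SE 0.31, n = 3 per genotype, edgeR adjusted p = 0.00313), with values between -2.45 and -1.76 when 1 library was left out. The antisense transcript Tbx3os1, which overlaps 1.74% of the Tbx3 exon bases, stood at 0.302 ± 0.157 CPM with WT/WT, and KO/KO gave 0.308 ± 0.192 CPM. Of the related genes Tbx2 and Tbx4 neither was called, and Tbx5 had 1 count in all libraries together. The summed stromal markers given above also did not overlap and were lower in KO/KO, with Col1a1 and Pdgfra called among 8 tested and 5 of the 8 overlapping between genotypes. The fibrillar collagen gene Col1a1 had 72.7, 71.8 and 54.4 CPM with WT/WT, against 30.9, 19.0 and 23.0 CPM with KO/KO. It was the largest part of the sum in every library, so the sum mostly follows this gene. The other collagen genes of the list, Col1a2 and Col3a1, overlapped between genotypes, with log2 fold changes of -0.13 and -0.21. The part of these markers in the difference of Tbx3 was not tested.

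Sox2 (chromosome 3, positions 34650405 to 34652461, plus strand), the HMG-box partner of POU5F1, was present at a trace level. Its counts were 6, 20 and 11 in WT/WT and 10, 25 and 60 in KO/KO, or 0.137, 0.415 and 0.270 CPM against 0.223, 0.507 and 0.930 CPM. The genotypes overlapped, and KO/KO replicate 3 was the highest. The log2 fold change of 1.02 had a 95% interval from -0.36 to 2.40 (edgeR adjusted p = 0.309), and it was 0.42 without KO/KO replicate 3. Sox2 lies within the longer noncoding gene Sox2ot on the same strand, with which it shares no annotated exon bases, and Sox2ot had 0 to 8 counts per library. The close relative Sox3, a known gene of spermatogonial progenitors, fell. It had 69.8, 66.1 and 71.9 CPM with WT/WT, and KO/KO gave 18.5, 12.2 and 2.14 CPM (log2 fold change -2.67, SE 0.55, edgeR adjusted p = 0.0113). Sox1 stood at 0.451 ± 0.123 CPM with WT/WT, and KO/KO gave 0.517 ± 0.182 CPM.

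Nanog (chromosome 6, positions 122707489 to 122714633, plus strand), the homeodomain factor that stabilises the naive state, was the one member that met the rule for silence, under 0.1 CPM in each of the 6 libraries. It had 3 counts in WT/WT replicate 3 and 0 in the other 5 libraries. Over the 3 KO/KO libraries together, a total of 0 allows a level of up to 0.0189 CPM (3 counts of the summed totals), and the exact Poisson 95% interval there reached 0.0233 CPM. In WT/WT the pooled level was 0.0226 CPM, with an exact Poisson 95% interval from 0.00466 to 0.0660 CPM. Its pseudogene copies Nanog-ps1 and Nanog-ps2 had no counts at all. Such intervals and limits cover counting error only, since PCR copies of a molecule were not distinguished.

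Prdm14 (chromosome 1, positions 13113457 to 13127163, minus strand), a PR domain factor that represses the de novo methyltransferases and FGF signalling in embryonic stem cells and primordial germ cells, was close to silent. Its counts were 0, 11 and 1 in WT/WT and 1, 5 and 0 in KO/KO. WT/WT replicate 2, at 0.228 CPM, and KO/KO replicate 2, at 0.101 CPM, kept it from meeting the rule. Its pooled level was 0.0904 CPM in WT/WT (exact Poisson 95% interval 0.0467 to 0.158) and 0.0378 CPM in KO/KO (0.0139 to 0.0823), and these intervals overlapped. They leave out the spread between libraries, and WT/WT replicate 2 held 11 of the WT/WT counts, so the overlap does not compare the genotypes. The related gene Prdm1, which specifies primordial germ cells, stood at 1.55, 0.727 and 1.2 CPM with WT/WT, and KO/KO gave 2.32, 2.84 and 1.95 CPM, a difference that missed the threshold (edgeR adjusted p = 0.0600).

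For comparison, 20 genes of distant tissues such as liver, pancreas, retina and muscle were examined by the same rule. Of these 5 were silent, among them Alb and Ins1, and the median of their highest library was 0.349 CPM. Myh6, a heart myosin gene, reached 84.1 CPM, so this list is not a uniform background. Among 19524 protein-coding genes 18.8% were silent. The highest libraries of Prdm14, at 0.228 CPM, and of Nanog, at 0.0735 CPM, lay below the 0.349 CPM of the distant tissue list. That of Sox2, at 0.930 CPM in KO/KO replicate 3, lay above it.

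Zfp42, also called Rex1 (chromosome 8, positions 43295063 to 43306980, minus strand), is a zinc finger gene related to Yy1 and a standard marker of the naive state. It stood at 7.28, 8.31 and 6.84 CPM with WT/WT, and KO/KO gave 10.7, 11.5 and 9.32 CPM. All KO/KO libraries were above all WT/WT libraries, yet the difference missed the threshold (log2 fold change 0.49, 95% interval 0.14 to 0.84, edgeR adjusted p = 0.0629). DESeq2 called it (adjusted p = 0.0395), and so did the edgeR fit without KO/KO replicate 3 (edgeR adjusted p = 0.0432). Over 14 alternatives its adjusted p ranged from 0.0395 to 0.203. Yy1 stood at 60.1 ± 3.86 CPM with WT/WT, and KO/KO gave 54.2 ± 2.83 CPM (SD, n = 3 each), and Yy2 had no counts.

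Dppa4 and Dppa2 are neighbours on chromosome 16, at positions 48283733 to 48294237 and 48303908 to 48319723 of the plus strand, with 9670 bases between them. No gene of the count tables that could be placed by its symbol lay in the gap. The SAP-domain proteins of Dppa4 and Dppa2 work together at CpG-rich promoters and activate genes of the 2-cell embryo. Dppa4 stood at 15.8, 17.5 and 16.9 CPM with WT/WT, and KO/KO gave 32.7, 53.5 and 47.6 CPM. The WT/WT libraries lay close together, and KO/KO replicate 1 lay between them and the other KO/KO libraries. The log2 fold change was 1.42 (SE 0.17, n = 3 per genotype, edgeR adjusted p = 0.000984), a 2.67-fold difference, and it ranged from 1.27 to 1.60 when 1 library was left out. Dppa2 stood at 1.35, 1.39 and 1.35 CPM with WT/WT, and KO/KO gave 2.03, 1.72 and 2.03 CPM. Its KO/KO libraries also lay above those of WT/WT, but the test was not passed (log2 fold change 0.50, 95% interval -0.04 to 1.05, edgeR adjusted p = 0.203), and whether the pair differed in their change was not tested.

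Genes of the kind that Dppa2 and Dppa4 activate in embryonic cells had too few counts for a comparison. None of the 20 2-cell stage genes found in the tables, among them Zscan4a to Zscan4f, Zfp352, Tcstv1 and Duxf3, had enough counts to be tested, and 14 were silent. The highest count of any of them in a library was 25, for Duxf3 in KO/KO replicate 2. Most belong to families of near-identical copies, and how reads that match several copies were counted is not known from the labels. Usp17le had 0, 0 and 3 counts in WT/WT and 15, 11 and 6 in KO/KO, and was named after its values were seen. Its relatives did not share this pattern. Usp17ld had 0, 6 and 5 counts in WT/WT and 0, 0 and 0 in KO/KO. Usp17la and Usp17lc overlapped between genotypes, and Usp17lb had no counts.

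Dppa3, also called Stella (chromosome 6, positions 122626410 to 122630272, plus strand), protects methylated DNA from oxidation in the early embryo and binds UHRF1, the guide of the maintenance methyltransferase. Its counts were 16, 26 and 29 in WT/WT and 6, 1 and 0 in KO/KO, or 0.365, 0.540 and 0.711 CPM against 0.134, 0.0203 and 0 CPM. Every WT/WT library was above every KO/KO library, at a low level throughout. The pooled level in KO/KO was 0.0441 CPM, with an exact Poisson 95% interval from 0.0177 to 0.0909 CPM. As given above, Dppa3 passed the filter on low counts only through WT/WT, so the test values that follow only describe it. The log2 fold change was -3.46 (SE 0.89, 95% interval -5.45 to -1.47, n = 3 per genotype, edgeR adjusted p = 0.0290). It was -5.55 without KO/KO replicate 1, and the call was lost in each of the other 5 fits that left out a library (adjusted p = 0.0687, 0.107 and 0.120 without WT/WT replicates 1, 2 and 3, and 0.0709 and 0.0512 without KO/KO replicates 2 and 3). The pseudogene Dppa3-ps had 3, 0 and 4 counts in WT/WT and 0, 8 and 10 in KO/KO, so a share of these reads is uncertain. It was thus highest in the KO/KO libraries where Dppa3 was lowest. The part of reads shared with the pseudogene in the difference of Dppa3 was not tested. Uhrf1 itself stood at 238 ± 24.2 CPM with WT/WT, and KO/KO gave 208 ± 35.2 CPM. It was not called.

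**Figure D2:**
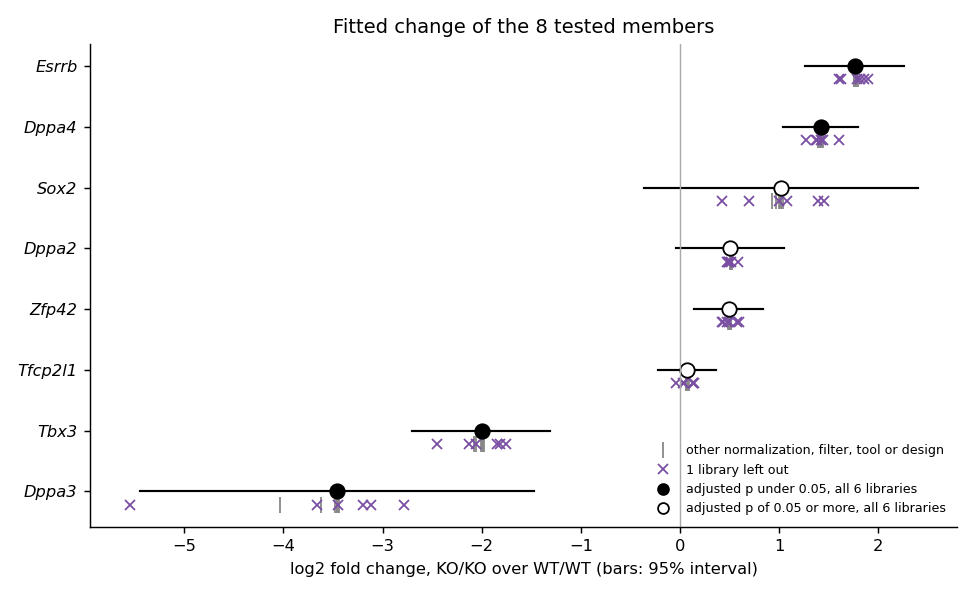
Fitted log2 fold change of KO/KO over WT/WT for the 8 tested members, with 95% intervals as bars. Grey ticks are other normalizations, filters, tools or designs and purple crosses leave out 1 library, which moved Dppa3 from -2.78 to -5.55 and Esrrb only from 1.60 to 1.90.

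Between genes, levels were compared per kilobase of merged exons. In WT/WT the order ran from Dppa4 at 10.1 ± 0.506 CPM per kb through Zfp42 at 3.97 ± 0.400, Tfcp2l1 at 2.42 ± 0.167 and Tbx3 at 1.96 ± 0.434 to Dppa3, Dppa2 and Esrrb at 0.604 ± 0.194, 0.557 ± 0.0104 and 0.403 ± 0.0844 CPM per kb (SD, n = 3 each). Sox2 followed at 0.133 ± 0.0677, with Prdm14 and Nanog last. Neighbours in this order whose libraries overlapped were Tfcp2l1 and Tbx3, Dppa3 and Dppa2, Sox2 and Prdm14, and Prdm14 and Nanog. Over 15393 tested genes with a known length, the median stood at 3.58 CPM per kb in WT/WT, so Dppa4 and Zfp42 were the members above it, with 75.8% and 52.4% of tested genes below them.

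In KO/KO the order began again with Dppa4, at 26.9 ± 6.45 CPM per kb and with 92.9% of tested genes below it, followed by Zfp42 at 5.60 ± 0.595 and Tfcp2l1 at 2.54 ± 0.356. Esrrb came next, at 1.36 ± 0.244 CPM per kb, then Dppa2 at 0.788 ± 0.0730 and Tbx3 at 0.488 ± 0.235, whose libraries overlapped. Esrrb stood above Tbx3 in KO/KO and below it in WT/WT, on the scale per kb and without overlap of their libraries in either genotype. Sox2 at 0.269 ± 0.173 overlapped both Tbx3 and Dppa3, and Dppa3, Prdm14 and Nanog closed the order, each overlapping the next.

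**Figure D3:**
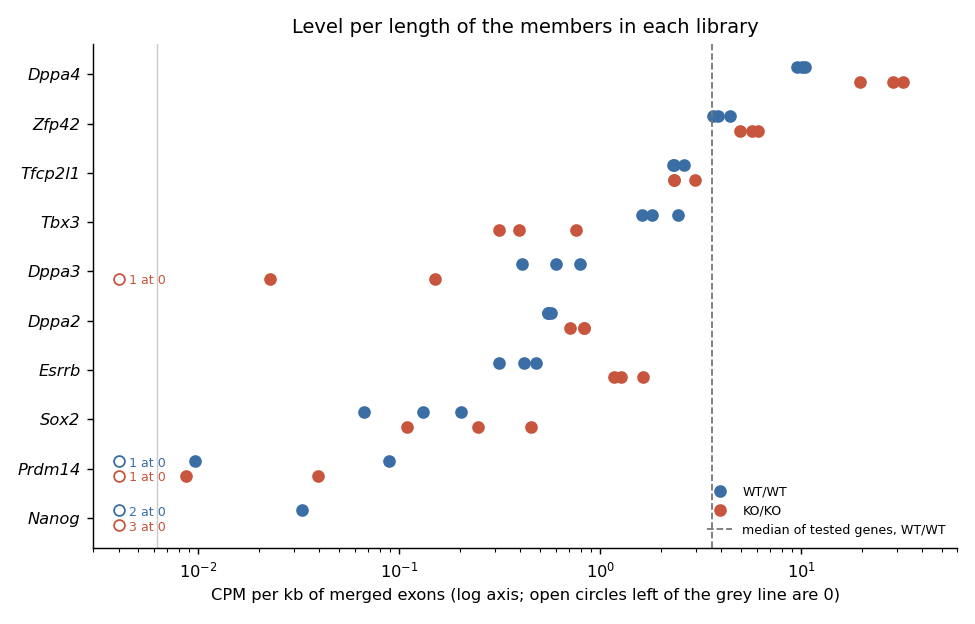
Level of each member per kilobase of merged exons, in CPM per kb on a log axis, in the WT/WT (blue) and KO/KO (red) libraries, with open circles for libraries at 0 and a dashed line at the WT/WT median of tested genes, 3.58 CPM per kb. Dppa4 lies above the line in all libraries, and Nanog, Prdm14 and Sox2 lie far below it.

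Other genes of the network moved in both directions. Over 7 lists pooled without the members, 85 genes were found and 55 tested, of which 6 were higher and 11 lower in KO/KO, and the median log2 fold change was -0.16. Without WT/WT replicate 2 or 3 there were 2 higher, and without WT/WT replicates 1, 2 and 3 there were 7, 7 and 6 lower. With all libraries the share of the pool called was 30.9%. Over all genes tested it was 14.8%, with 8.33% higher and 6.42% lower, which is also the background of each list below. The lists were chosen with earlier results of these data known, so such shares only describe them. Among 10 tested factors shared by pluripotent and germ cells 1 rose and 3 fell. Pou5f1, the gene for OCT4, fell from 18.8 ± 1.55 to 11.7 ± 0.845 CPM, and Mycn from 51.8 ± 6.14 to 31.9 ± 6.30 CPM, which missed the threshold at an adjusted p of 0.0692 once WT/WT replicate 3 was left out. Sall4, a zinc finger gene of germ and stem cells, had a log2 fold change of -0.36 at an edgeR adjusted p of 0.0485, and its call was lost in 9 of 14 alternatives (adjusted p between 0.0502 and 0.171 there). Zscan10, a zinc finger gene of embryonic stem cells, rose from 0.160, 0.208 and 0.0735 CPM to 1.09, 1.38 and 1.47 CPM (log2 fold change 3.12, SE 0.44, edgeR adjusted p = 0.00205), and it passed the filter on low counts only through KO/KO. Lin28a, Lin28b, Utf1, Myc, Trim71 and L1td1 were not called.

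Of 10 other tested genes of the naive state 1 rose and 3 fell. Klf5, a Kruppel-like factor, fell from 7.82 ± 0.904 to 1.40 ± 0.434 CPM, and Tdh, the threonine dehydrogenase gene that is highly active in embryonic stem cells, from 2.05 ± 0.157 to 0.287 ± 0.214 CPM. Nr5a2, a nuclear receptor gene, fell by 0.60 on the log2 scale and Fbxo15, a marker of embryonic stem cells, rose by 0.90. Leaving out KO/KO replicate 2 or any of the WT/WT libraries ended the call of Nr5a2 (adjusted p between 0.0518 and 0.129), and leaving out replicate 2 or 3 of WT/WT or replicate 2 of KO/KO ended that of Fbxo15 (adjusted p between 0.0633 and 0.124). Klf2 and Klf4 had log2 fold changes of 0.52 and -0.23 and were not called. Gdf3, a TGF-beta family ligand gene, had 1 count in 1 library, and Fgf4 also had too few counts to be tested.

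The LIF pathway, which feeds the naive network through STAT3, had 9 of 9 genes tested, 2 higher and 1 lower. The ligand gene Lif itself was low, with 10, 12 and 12 counts in WT/WT and 2, 9 and 2 in KO/KO. It passed the filter on low counts only through WT/WT and was not called (edgeR adjusted p = 0.176). Stat3 stood at 75.9, 80.8 and 77.2 CPM with WT/WT, and KO/KO gave 118, 134 and 122 CPM (log2 fold change 0.68, SE 0.08, edgeR adjusted p = 0.00101), and Jak1, the kinase upstream of it, rose by 0.36 on the log2 scale. Pim3, a kinase gene, fell by 0.54. The receptor genes Lifr and Il6st and the STAT3 target Socs3 were not called, with log2 fold changes of -0.05, -0.20 and -0.30. Jak1 lost its call without WT/WT replicate 2 or 3 (adjusted p = 0.0613 and 0.0634) and Pim3 without any one of the WT/WT libraries (adjusted p between 0.0831 and 0.0929).

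Of 9 tested genes of the primed state, the later stage of pluripotency, 2 rose and 3 fell. Lef1, a transcription factor of Wnt signalling, stood at 16.2, 16.8 and 14.0 CPM with WT/WT, and KO/KO gave 2.61, 1.28 and 1.75 CPM. Sox3, described above, and Pou3f1, a POU factor gene, also fell, the latter by 0.55 on the log2 scale. T and Eomes, T-box genes of mesoderm and relatives of Tbx3, rose by 1.59 and 1.07 on the log2 scale. Pou3f1 lost its call without any one of the WT/WT libraries (adjusted p between 0.0962 and 0.108), and T and Eomes without WT/WT replicate 2 or 3 (adjusted p between 0.0591 and 0.0672). Otx2, Fgf5, Foxd3 and Cer1 had too few counts to be tested.

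Among 9 partners of the members and genes of primordial germ cell specification, Tfap2c alone passed the test. It encodes a factor that acts with PRDM1 and PRDM14 in primordial germ cells. It stood at 4.06, 3.63 and 4.07 CPM with WT/WT, and KO/KO gave 1.05, 1.05 and 1.33 CPM (log2 fold change -1.77, SE 0.23, edgeR adjusted p = 0.00128). Cbfa2t2, the partner of PRDM14, and Ncoa3, a coactivator of ESRRB, had log2 fold changes of -0.06 and 0.15. Of 12 tested paralogs of the members 1 was called, Sox3.

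**Figure D4:**
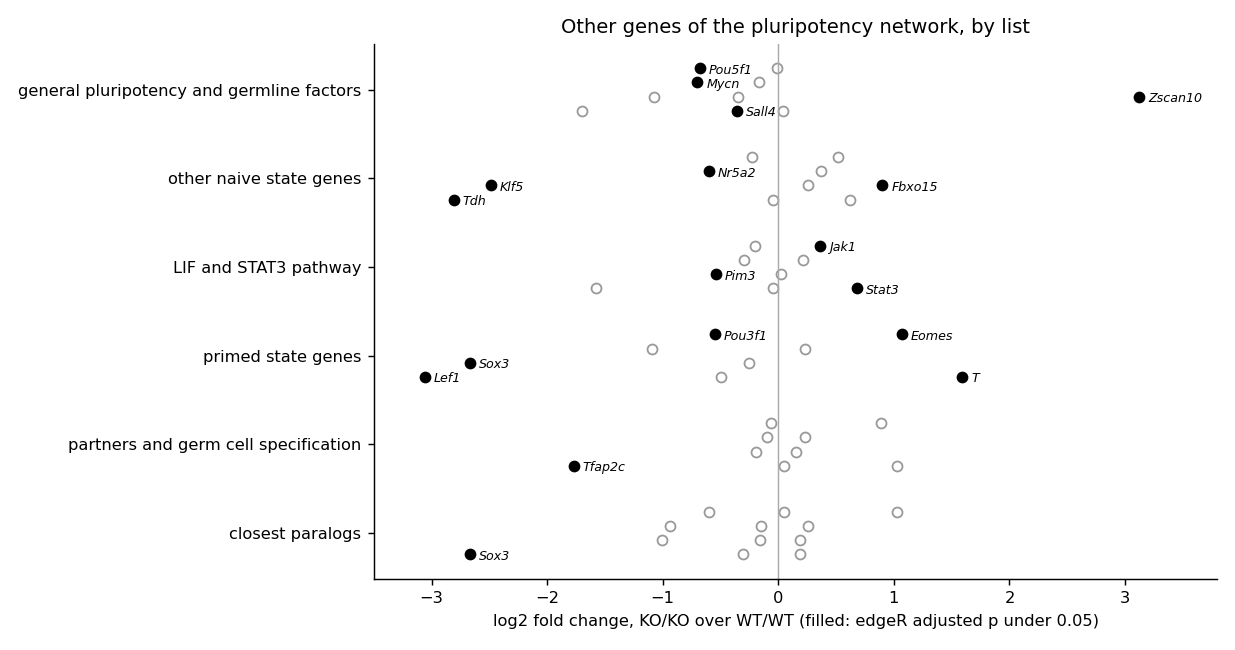
Log2 fold change of KO/KO over WT/WT for each tested gene of 6 lists, filled and named where the edgeR adjusted p was under 0.05; vertical offsets within a list only separate the points. Called genes lie on both sides of 0, from Lef1 at -3.06 to Zscan10 at 3.12, and Sox3 belongs to 2 lists.

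The genes beside the members on the chromosome were not uniform in their change. Among genes of the count tables that could be placed by symbol, Dppa3 and Nanog follow each other on chromosome 6, with 77216 bases between them. On the far side of Nanog, 13176 bases away, lies Slc2a3, a glucose transporter gene. Slc2a3 stood at 14.3, 12.0 and 9.56 CPM with WT/WT, and KO/KO gave 42.5, 64.4 and 50.1 CPM (log2 fold change 2.13, SE 0.19, edgeR adjusted p = 0.000252), while Nanog beside it had no counts in KO/KO and Dppa3 was lower there. Next to Tfcp2l1, Gli2, a transcription factor of Hedgehog signalling, had a log2 fold change of -2.43 (edgeR adjusted p = 0.0132), and Clasp1 on the other side was not called. Of 16 nearest neighbours in the annotation that are no members and are listed in the count tables, 7 could be tested, and Slc2a3 and Gli2 were the 2 called. Over all genes tested 14.8% were called in either direction, so 2 of 7 is too few to tell from that share. The others tested were Clasp1, Gpatch2l beside Esrrb, Triml2 beside Zfp42, and Slco5a1 and Ncoa2 on either side of Prdm14.

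Among 12862 genes (12863 for Dppa3) whose mean log2 CPM was 0 or more, the pattern over the 6 libraries most like that of Esrrb was that of Sdc2 and Lrp1 (Pearson r of log2 CPM 0.9972 and 0.9971), for Dppa4 that of Ptpn6 and Fam204a (0.9984 and 0.9981), and for Tbx3 that of Sfrp1 and Aldh9a1 (0.9986 and 0.9962). For Dppa3, at very few counts, Haus6 and Eef1a1 came first (0.9993 and 0.9985). The points share libraries and the difference between genotypes, and between 198 and 636 genes per member had r over 0.95, so these names are a description only.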

How the data were processed

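Stranded total RNA libraries were made from Id4-GFP bright and medium germ cells after PicoPure extraction and DNase digestion, per the labels' protocols. The deposited values are raw counts of reads per gene. The submitters' processing notes name mm10, featureCounts 1.5.1 and STAR 2.7.0a. Annotation release, strand setting and handling of multi-mapping reads are not stated in the labels or notes. The 1205 rows of transposable element families, 14.1% to 15.5% of all counts, were left out of totals and tests.

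Counts were tested with edgeR 4.0.16 in R 4.3.3 (quasi-likelihood F test, two-sided, TMM factors, filterByExpr with a minimum of 10 counts in 3 libraries, or 0.214 CPM, genotype as the only term). The same fit was also run on counts simulated from its own estimates, and no result here rests on that run. P-values were adjusted over all genes tested. The SE is the fold change divided by the square root of F. Coordinates and exon lengths came from GENCODE M21 (GRCm38, the assembly of mm10), in which 28418 of 54087 gene symbols were found once. Alternatives were other factors, filters and library sizes, DESeq2 1.42.0, limma-voom 3.58.1, a replicate block and leaving out each library. The text names all members, Dnmt3a, every called gene of the network and marker lists, the tested nearest neighbours (those with too few counts were only counted) and, per called member, the 2 genes most like it among those without a predicted symbol. Uncalled list genes beyond this rule, and the locus transcripts, were named after their values were seen. Members and lists were chosen with earlier results of these data known. Figures were drawn with matplotlib 3.10.9.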

Additional observations from a re-analysis of the deposited data

How the results depend on the processing

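The rises of Esrrb and Dppa4 and the fall of Tbx3 kept direction and call in all 14 alternatives, with log2 fold changes of 1.60 to 1.90, 1.27 to 1.60 and -2.45 to -1.76. Members lower in KO/KO numbered 1 with a filter at 1 CPM in 3 libraries, where Dppa3 is not tested, and 1 to 2 when 1 library was left out. Tfcp2l1 changed sign, to -0.04, without KO/KO replicate 1 and ranged from there to 0.14 when any 1 library was left out, and the cause was not tested. When 1 library was left out, 814 to 1985 genes were higher and 560 to 1380 lower, the fewest without a WT/WT library, and of the other network genes 2 to 7 were higher and 6 to 14 lower. The 0.1 CPM rule made 1 member silent. At 0.05 CPM it was 0, since Nanog reached 0.0735 CPM in WT/WT replicate 3, and at 0.5 CPM it was 2, with Prdm14 added. With the longest transcript as length, WT/WT levels were 0.567 CPM per kb for Esrrb, 11.3 for Dppa4 and 2.60 for Tbx3, and Esrrb then stood slightly above Dppa2. Between libraries with equal replicate numbers, deviations from the group means correlated at -0.09, 0.04 and 0.02. Those with unequal numbers correlated between -0.16 and 0.15. With 3 libraries per genotype such values cannot show whether the libraries were paired, which the labels do not state. With the replicate block 1467 genes were higher and 1107 lower, and the same 2 members rose and 2 fell, while Fbxo15 lost its call (adjusted p = 0.0512). Depth limits Nanog, Prdm14, Dppa3 and Sox2, where 3 counts in a library are 0.0465 to 0.0735 CPM.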
